A study of Mus musculus with 6 samples.

Results

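The regions described here are 742 TAF4b binding peaks at annotated promoters that lay outside every H3K4me3 region of the same-numbered library. They were taken from the TAF4b replicate 1 list. A peak was kept if the authors classed it as promoter at a transcription start site (TSS), if it shared no base with an H3K4me3 replicate 1 region, and if it shared none with a TAF4b replicate 2 peak. They are called unmarked peaks below. TAF4b replicate 1 held 7861 peaks, of which 5756 were in the promoter class. Of these 5756, 789 (13.7%) shared no base with an H3K4me3 replicate 1 region, 47 of the 789 were left out because TAF4b replicate 2 also listed them, and the remaining 742 made up 12.9% (95% Wilson interval 12.05 to 13.8). The 4967 promoter peaks that did overlap an H3K4me3 region, called marked peaks, served for comparison. The peaks were chosen by their listing and their overlap with these lists, so that those overlaps and the peak scores are given as descriptions.

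The study profiled male germ cells of the mouse fetal testis, the prospermatogonia, at E16.5 (embryonic day) by CUT&RUN, which releases and sequences the DNA next to an antibody-bound protein. Cells from gonads with an Oct4-EGFP transgene, a germ cell reporter, were sorted by their green fluorescence, the background was C57BL/6, and the embryos were wild type for Taf4b. There were 3 groups of 2 replicates, with antibodies against TAF4b, against H3K4me3 (histone H3 trimethylated on lysine 4) or a control IgG, and the IgG libraries were not analysed here. Whether replicates came from separate animals or sorts is not given in the sources used here.

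TAF4b is a subunit of TFIID, the general transcription factor that recognises core promoters and starts assembly of the RNA polymerase II complex. It is closely related to the widely expressed TAF4 and is best known for its role in the germ line and ovary. H3K4me3 marks the nucleosomes on either side of active or poised start sites, typically at promoters rich in CpG dinucleotides, and the TAF3 subunit of TFIID can bind the mark.

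The lists differed widely in size, which touches every result below. TAF4b replicate 2 held 848 peaks, of which 738 were in the promoter class off the mitochondrial genome, and H3K4me3 held 64891 regions in replicate 1 and 1730 in replicate 2. Read depth is unknown, so a shallow list that missed a region cannot be told apart from a promoter without the mark, nor a mark weak in every cell from a mark present in few cells. Intervals printed with shares cover counting error only, since the peaks of 1 library are not replicates of a condition. As a check of the cell type, a TAF4b replicate 1 promoter peak was listed for 6 of 10 germ cell markers (Ddx4, Dazl, Dnd1, Mael, Tdrd9 and Piwil2) and for 0 of 7 Sertoli cell, 0 of 4 endothelial and 0 of 4 macrophage markers. The H3K4me3 replicate 1 promoter regions named 5 of 10 germ cell, 6 of 7 Sertoli cell, 4 of 8 Leydig or interstitial, 1 of 4 endothelial and 0 of 4 macrophage markers, and their part in the results was not tested.

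The sequences below are the peak intervals that the results turn on, read from GRCm39 5′ to 3′ on the strand of the annotated transcript. Capitals mark each match, on either strand, to any of 14 consensus sequences spelled out further below. Bases annotated as untranslated in GENCODE M39 were left out, and a peak with under 60 bases besides these is not shown. The first 5 were among the highest-scoring unmarked peaks.

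2610005L07Rik, chr8:20016361-20016503 (+): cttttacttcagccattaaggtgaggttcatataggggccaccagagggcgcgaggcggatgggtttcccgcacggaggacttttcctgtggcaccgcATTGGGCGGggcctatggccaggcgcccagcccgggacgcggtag
Gm10060, chr8:19834601-19834743 (+): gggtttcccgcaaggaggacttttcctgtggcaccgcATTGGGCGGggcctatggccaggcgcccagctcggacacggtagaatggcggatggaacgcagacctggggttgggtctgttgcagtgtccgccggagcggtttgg
Vkorc1l1, chr5:129970600-129970742 (+): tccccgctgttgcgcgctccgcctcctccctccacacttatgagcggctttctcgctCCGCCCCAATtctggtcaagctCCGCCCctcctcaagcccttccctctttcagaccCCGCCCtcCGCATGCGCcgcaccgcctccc
Cyth1, chr11:118139486-118139623 (-): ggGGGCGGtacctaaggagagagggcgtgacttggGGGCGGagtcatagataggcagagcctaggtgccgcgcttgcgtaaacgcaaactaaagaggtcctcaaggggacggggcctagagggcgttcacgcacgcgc
Ift57, chr16:49519408-49519543 (+): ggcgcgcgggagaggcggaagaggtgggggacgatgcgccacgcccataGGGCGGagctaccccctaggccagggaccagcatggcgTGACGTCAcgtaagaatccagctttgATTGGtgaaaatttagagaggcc

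The 2610005L07Rik and Gm10060 peaks share a stretch of sequence, and each had 4 further copies elsewhere in the genome at 95% identity or more, so that reads from them could be placed at any copy. The other 3 had no such copy. Ift57 holds the full CRE, Vkorc1l1 the full NRF1 site, and Cyth1 GC boxes alone.

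The next 4 are among the unmarked peaks at genes of germ cells, meiosis or the piRNA pathway. The last is a high-scoring marked peak, at Ensa (score 66.5, rank 4 in the list), with 3 CCAAT boxes. CCAAT boxes are also in the unmarked peaks of 2610005L07Rik, Gm10060, Vkorc1l1, Ift57, Dazl and Tdrd9. The printed peaks therefore do not display the difference in CCAAT share given further below.

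Dazl, chr17:50600682-50600824 (-): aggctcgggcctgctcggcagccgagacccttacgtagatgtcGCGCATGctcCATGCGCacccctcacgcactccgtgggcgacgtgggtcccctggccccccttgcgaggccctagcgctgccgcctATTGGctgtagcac
Tdrd9, chr12:111937881-111937964 (+): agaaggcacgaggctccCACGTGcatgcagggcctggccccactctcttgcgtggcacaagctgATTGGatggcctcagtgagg
Tex12, chr9:50472632-50472755 (-): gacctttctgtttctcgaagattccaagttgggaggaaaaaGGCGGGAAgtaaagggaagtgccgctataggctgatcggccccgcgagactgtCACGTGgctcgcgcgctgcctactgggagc
Taf7l, chrX:133375873-133376015 (-): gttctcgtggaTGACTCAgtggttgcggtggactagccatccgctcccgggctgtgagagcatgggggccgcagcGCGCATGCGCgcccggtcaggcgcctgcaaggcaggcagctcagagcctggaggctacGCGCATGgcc
Ensa (marked), chr3:95532120-95532262 (+): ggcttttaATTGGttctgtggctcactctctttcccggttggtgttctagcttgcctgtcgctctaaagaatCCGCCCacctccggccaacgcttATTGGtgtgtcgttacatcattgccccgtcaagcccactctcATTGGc

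Most unmarked peaks were not far from a listed H3K4me3 region: they sat in a gap beside or between regions. The distance to the nearest H3K4me3 replicate 1 region had a median of 257 bp (quartiles 117 and 655, highest 213476). A region lay within 1000 bp of 582 of the 742 peaks (78.4%, 75.3 to 81.2), and 214 of them (28.8%) had a region within that distance on both sides. With only the higher-scoring 50% of H3K4me3 regions, which leaves more promoter peaks unmarked, the share of these near such a region was 25.7% (23.3 to 28.3). For the 214 peaks under the first definition, the gap between the pair of flanking regions had a median of 749 bp, with a range from 499 to 1603, around a TAF4b peak of 143 bp. The remaining 160 had no region within 1000 bp, and 1 of these lay on a contig on which no region was listed.

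**Figure D1:**
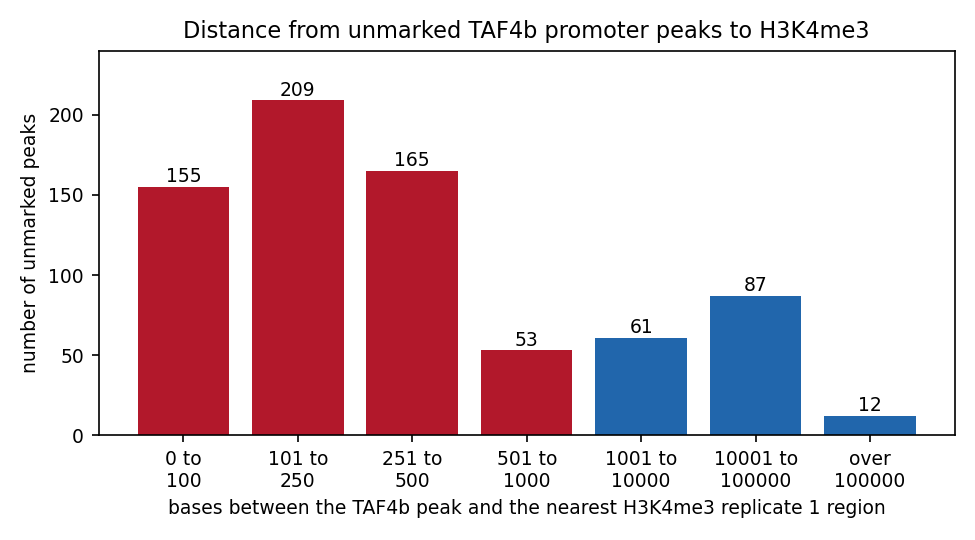
Number of unmarked TAF4b promoter peaks (vertical axis) by the number of bases to the nearest H3K4me3 replicate 1 region (horizontal axis, bins of unequal width). Red bars are distances up to 1000 bp and blue bars are longer ones, and the tallest bar holds 209 peaks up to 250 bp away.

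Where the flanking region was on a single side, it was more often downstream, over the transcribed part of the gene. Among the 579 near peaks with a known gene strand, 213 had regions on both sides (36.8%), 267 only downstream (46.1%) and 99 only upstream (17.1%). Around all unmarked peaks with a known strand, 35.5% were covered by an H3K4me3 region 500 bp upstream and 43.5% were covered 500 bp downstream. For marked peaks these shares were 67.3% and 77.9%, and 97.5% at the peak centre.

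**Figure D2:**
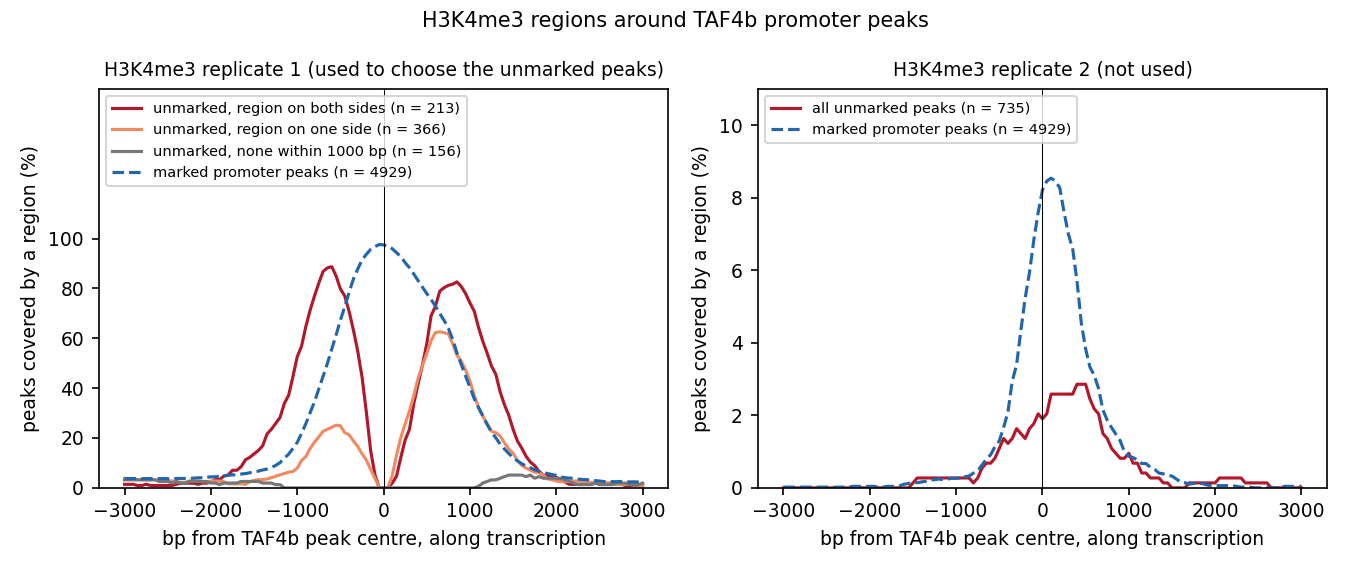
Share of TAF4b promoter peaks (vertical axes, %) covered by an H3K4me3 region at each distance from the peak centre (horizontal axes, bp along transcription), for replicate 1 on the left and replicate 2 on the right, on different vertical scales. The value of 0 at the centre of unmarked peaks in the left plot follows from how they were chosen. The line for peaks with a region on both sides is highest on either side of the centre, and the line for marked peaks is highest near the centre.

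The regions beside unmarked peaks were weaker and narrower than those that held marked peaks. The nearest region of the 582 near peaks had a median authors' score of 38.8 and a median width of 652.5 bp. The region that held a marked peak had a median score of 98.4 and a median width of 1526 bp. All 64891 regions had a median score of 46.2 and a median width of 780 bp. Scores and widths come from the same H3K4me3 list that chose the peaks, so this is a description of it. Of the marked peaks, 94.3% lay wholly inside a region.

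The edge of the definition was fine. Among unmarked peaks, those of Sort1 and Leprot abutted a region (0 bases between), those of Rnf113a2 and Fbxl4 were 1 base away and that of Patz1 was 2 bases away. Among marked peaks, Pabir1 shared 1 base with its region, Exosc10 2, Per3 3, Csgalnact2 3 and Ddx1 4.

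H3K4me3 replicate 2 was not used to choose the peaks. An H3K4me3 replicate 2 region overlapped 22 of the 742 unmarked peaks (2.96%, 1.97 to 4.45) and 9.18% of the marked peaks, beside 8.36% of all TAF4b replicate 1 promoter peaks. The difference was -6.22 percentage points (95% Newcombe interval -7.52 to -4.54). Among peaks with a replicate 2 region within 1000 bp, the region covered part of the TAF4b peak for 22 of 43 unmarked peaks (51.2%, 36.8 to 65.4) and for 456 of 619 marked peaks (73.7%, 70.1 to 77.0). That difference was -22.5 points (-37.3 to -7.83). The lower share was that of peaks near a replicate 1 region (17 of 37, 45.9%), while 5 of the 6 far peaks were covered (83.3%). Only 39 of the 1730 replicate 2 regions overlapped no replicate 1 region, so the lists are not separate maps of the genome.

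The 22 unmarked peaks inside a replicate 2 region fell into 2 kinds. In 12 the replicate 2 region also overlapped a replicate 1 region nearby, as at Dcp1a (an mRNA decapping factor) and Lamc1 (a laminin chain). In the other 10 it overlapped none, and 5 of these had no replicate 1 region within 1000 bp: Scaper, Chek1 (a DNA damage checkpoint kinase), Soat1 (a cholesterol acyltransferase), Me2 (a malic enzyme) and Polr1e (an RNA polymerase I subunit). The nearest replicate 1 region to the Chek1 peak (chr9:36637890-36638032, score 12.9) was 40123 bp away, while a replicate 2 region at 36637845 to 36638480 with a score of 101.1 covered it. These genes were chosen after their values were seen.

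TAF4b replicate 2 gave a similar share near the same H3K4me3 list. Of its 738 promoter peaks, 59 (7.99%) shared no base with an H3K4me3 replicate 1 region, and a region lay within 1000 bp of 45 of the 59 (76.3%, 64.0 to 85.3). None of the 59 is among the 742, since overlap with a replicate 2 peak barred a replicate 1 peak, and 47 overlapped replicate 1 peaks. Of the 12 that did not, 7 had a region within 1000 bp.

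By the authors' score, unmarked peaks were somewhat weaker than marked ones. Their median score was 14.4 (quartiles 10.4 and 20.3), against 17.4 for marked peaks and 16.4 for the 4406 marked peaks that, like the unmarked ones, had no TAF4b replicate 2 peak, with 14.9 for near peaks and 12.9 for those with no region within 1000 bp. Over the 5756 promoter peaks in quartiles of score, the share without an H3K4me3 region was 18.5% in the lowest, then 14.5% and 11.9%, and 9.72% in the highest. The share with no region within 1000 bp went from 4.86% to 1.56% over the same quartiles. Shape and place within the promoter were close: the deposited focus ratio, a fraction given for each peak, had a median of 0.633 in unmarked and 0.641 in marked peaks, and the centre lay a median of 50 and 51 bp upstream of the TSS. The centre was upstream in 78.6% and 81.1%, a difference of -2.54 points (-5.82 to 0.470).

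The unmarked peaks named 711 genes, 13.2% of the 5391 genes with a TAF4b replicate 1 promoter peak. Transcripts of 7 peaks were not matched to a gene, and 23 genes had more than 1 unmarked peak. Of the 711 genes, 57 also had a marked promoter peak and 352 had an H3K4me3 region annotated to a promoter of theirs. By peak, 48.8% of unmarked peaks had a gene with such a region, against 76.7% of marked peaks and 72.8% of all TAF4b replicate 1 promoter peaks. Protein-coding transcripts accounted for 89.6% of unmarked and 91.3% of marked peaks (difference -1.70 points, -4.22 to 0.454). The difference was -2.97 (-5.09 to -1.07) with the higher-scoring 50% of H3K4me3 regions, -3.08 (-5.66 to -0.832) for peaks within 1000 bp of a TSS and -0.201 for single-copy peaks. Long non-coding RNAs accounted for 7.14% and 5.96% of unmarked and marked peaks. Among peaks with no region within 1000 bp, 81.2% were protein-coding against 91.9% of near ones, and 11.25% against 6.01% were long non-coding.

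The strongest unmarked peak was that of Taf4b itself, the gene that encodes the protein profiled. It lay at chr18:14916068-14916210, 163 bp upstream of the TSS, and its score of 71.5 ranked 3 among all TAF4b replicate 1 peaks. H3K4me3 regions flanked it at 482 bp upstream (score 28.3) and 636 bp downstream (score 53.7). A second TAF4b replicate 1 peak, with a score of 12.9, overlapped the downstream region. TAF4b replicate 2 listed no peak within 6000 bp.

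Other high scorers named genes of many kinds. Next came 2610005L07Rik (57.1) and an unmatched transcript on chromosome 9 (50.1), both with copies elsewhere in the genome, 47 in the latter case. Tnrc6c, which acts in microRNA silencing, and Vkorc1l1, a vitamin K epoxide reductase, each scored 42.7 and had regions on both sides, 145 and 492 bp from Tnrc6c and 149 and 479 bp from Vkorc1l1. Cyth1, an exchange factor for ARF GTPases, scored 42.2 and had regions 88 and 513 bp away. Mdc1, a mediator of the DNA damage checkpoint, scored 41.2 with a region 26 bp downstream. Eif5 (37.7), which acts in start codon choice, had a region 21 bp upstream, and Eif4e (37.2), the mRNA cap-binding protein, had a region 193 bp upstream and none downstream for 50088 bp.

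Ift57, a component of intraflagellar transport in cilia, was the highest scorer that was both far from H3K4me3 and free of further copies. Its peak, printed above, scored 41.2, ranked 155 in the list and lay 117 bp upstream of the TSS, with the nearest region 20097 bp away. The remaining peaks among the 20 highest were Gm10060 (42.7), Sec16a (40.2), Gm2093 (39.2), Gna12 (37.7), Rfx3 (36.7), Banp (36.2), Pknox1 (35.7), Gm29477 (35.2), Kifc5b (35.2) and Shprh (34.7), and each of these 10 had a region within 1000 bp. Rfx3 is a transcription factor of ciliated cells, Banp binds unmethylated CpG-containing motifs, and Sec16a organises exit sites of the endoplasmic reticulum. The Sec16a peak was also inside an H3K4me3 replicate 2 region.

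**Figure D3:**
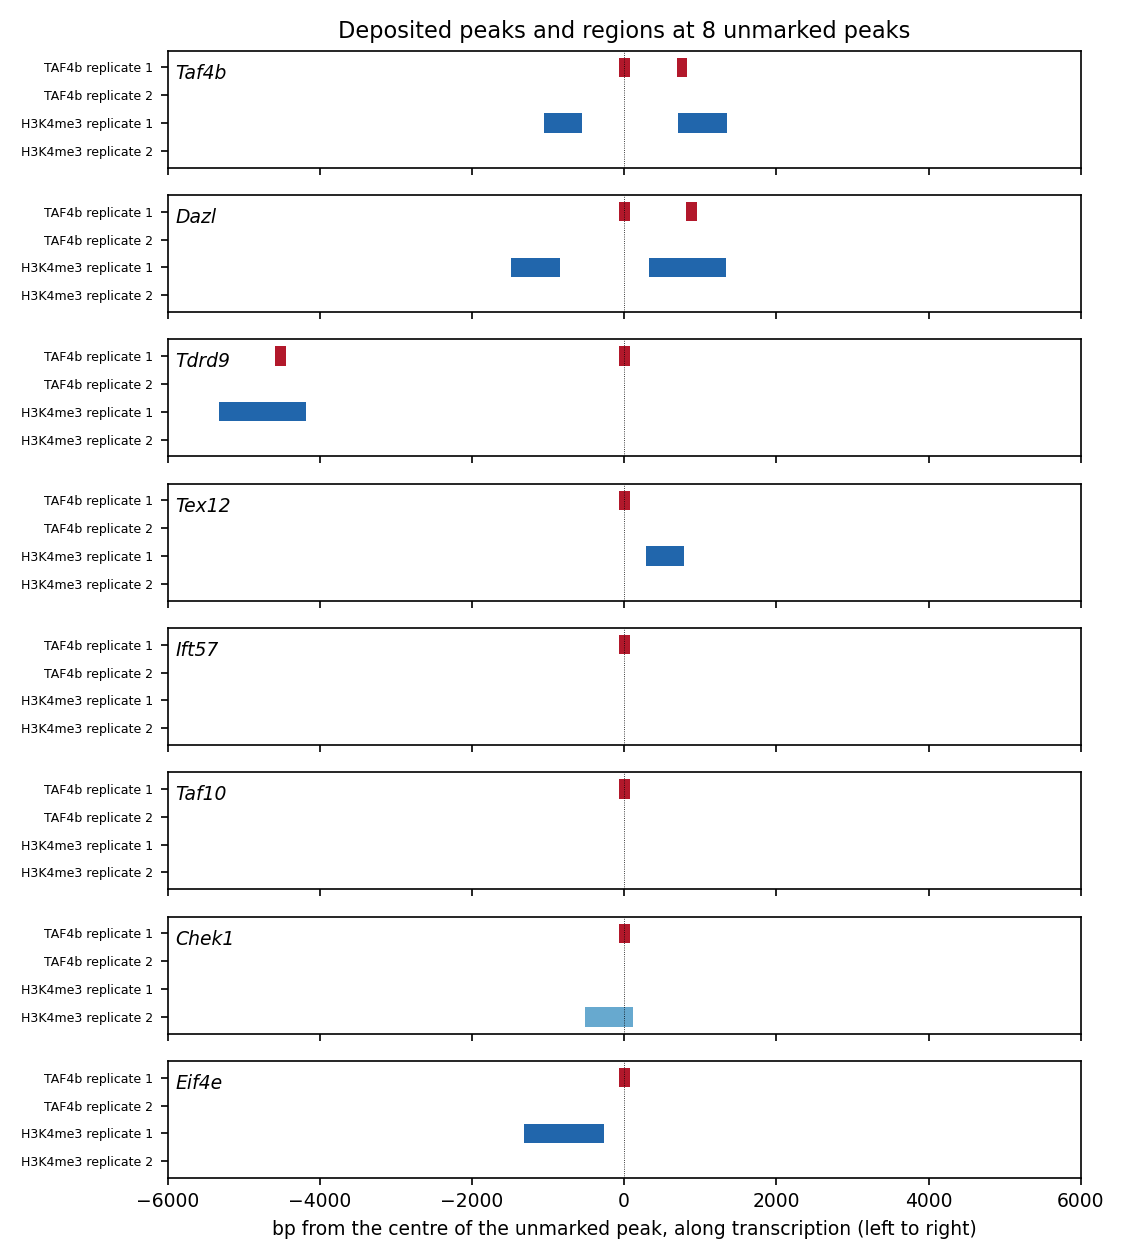
Deposited TAF4b peaks and H3K4me3 regions of both replicates (4 rows per map) within 6000 bp of 8 unmarked peaks, placed by distance from the peak centre in bp along transcription. At Taf4b and Dazl the peak sits between a pair of regions, at Tex12 and Eif4e beside a single one, at Ift57 and Taf10 no region lies in view, and at Chek1 the only region is from replicate 2.

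Among gene lists, the germ cell, meiosis and piRNA genes were mostly marked. Of 13 germ cell identity genes with a TAF4b replicate 1 promoter peak, 3 had an unmarked one (Taf4b, Dazl and Taf7l), as did 1 of 14 piRNA pathway genes (Tdrd9), 2 of 15 meiosis genes (Tex12 and Spata22) and 0 of 5 spermatid genes. Each count is to be read beside the 13.2% of all peak-bearing genes, and no test was run on these small counts. Dazl encodes a germ cell RNA-binding protein, and its peak scored 23.3 with regions 257 bp downstream and 776 bp upstream. A second TAF4b peak, with a score of 16.9, lay inside the downstream region.

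The Tdrd9 peak, at the gene of a helicase of the piRNA pathway, also scored 23.3, but its nearest region was 4107 bp upstream. Tex12 encodes a protein of the synaptonemal complex, and its peak scored 18.4 with a region 210 bp downstream. Spata22, which acts in meiotic recombination, had a peak of 9.93 only 5 bp from a region. The Taf7l peak, at an X-linked paralogue of the TFIID subunit TAF7, scored 10.4 and lay 1183 bp from a region. The sequences above place E boxes in the Tdrd9 and Tex12 peaks, an E2F site in the Tex12 peak and CCAAT boxes in the Tdrd9 and Dazl peaks. Short NRF1 sites are in the Dazl and Taf7l peaks. The Taf7l peak also holds the full NRF1 site and an AP-1 site.

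Genes of the TFIID family itself and of the H3K4 methylation machinery were present on both sides of the divide. Of 14 TFIID or related genes with a TAF4b promoter peak, 4 had an unmarked one: Taf4b, Taf7l, Taf10 and Taf5l. Taf4b and Taf7l were also counted in the germ cell identity list. The counts in this paragraph are to be read beside the 13.2% of all peak-bearing genes, and none was tested. The peak of Taf10, a subunit that TFIID shares with the SAGA coactivator, scored 12.9 and its nearest region was 6697 bp away. Taf5l, a SAGA subunit, had 2 unmarked peaks of 15.9 and 11.4, at 117 and 258 bp from a region. Of 10 genes for H3K4 methylation or demethylation, 2 had an unmarked peak: Rbbp5 (14.4, 159 bp from a region), a core subunit of the methyltransferase complexes, and Kdm5c (21.3, 232 bp), an X-linked demethylase. Housekeeping genes gave 2 of 8 (among them Polr2a, 32 bp from a region), imprinted genes 1 of 8 (Igf2r, 380 bp), Polycomb target genes 0 of 3 and Leydig or interstitial genes 0 of 2. No TAF4b promoter peak was listed for the Sertoli cell or the endothelial and macrophage lists.

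Farthest from H3K4me3 among protein-coding genes were Usp9y on the Y chromosome (213476 bp, score 11.4), Mmgt1 (122097 bp, 12.4), Tent5d (121261 bp, 9.43) and Siah1b (118290 bp, 15.4) on the X chromosome, and Specc1 on chromosome 11 (119065 bp, 31.8). Usp9y encodes a deubiquitinase and Specc1 a coiled-coil protein.

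The X chromosome held more unmarked peaks than its share. Of 155 TAF4b replicate 1 promoter peaks on X, 44 (28.4%) were among the 742, against 696 of 5597 (12.4%) on the autosomes, where single chromosomes went from 8.30% (chromosome 7) to 21.2% (chromosome 15). Counting every promoter peak without an H3K4me3 replicate 1 region, the shares were 29.7% (23.0 to 37.3) on X and 13.2% (12.4 to 14.2) on autosomes, a difference of 16.4 points (9.75 to 24.1). Peaks with no region within 1000 bp made up 14.2% (9.56 to 20.6) of the X peaks and 2.59% (2.21 to 3.04) of the autosomal ones. Read the other way, 5.93% of unmarked and 2.19% of marked peaks were X-linked (difference 3.74 points, 2.19 to 5.71).

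Several values moved with the X chromosome. TAF4b promoter peaks on X had a median score of 11.9, against 17.4 on autosomes, and the H3K4me3 regions that held marked peaks had a median score of 53.7, against 99.9. In the higher-scoring 50% of TAF4b replicate 1 peaks the difference in X-linked share was 1.80 points (0.395 to 4.20). TAF4b replicate 2 listed only 11 promoter peaks on X, 2 of them unmarked, and its difference of 2.06 points had an interval from -0.657 to 10.2. Male cells carry a single X chromosome, and the part of copy number or of signal strength was not tested.

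**Figure D4:**
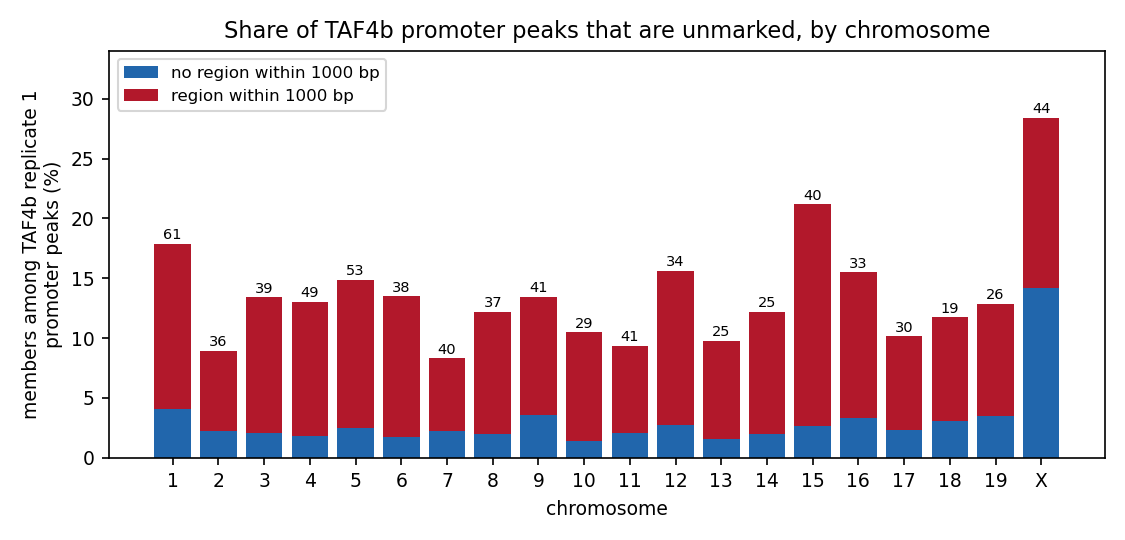
Share of the TAF4b replicate 1 promoter peaks of each chromosome (vertical axis, %) that were unmarked, split into those with an H3K4me3 replicate 1 region within 1000 bp (red) and those without (blue), with their number above each bar. X is the tallest bar at 28.4% and its blue part is 14.2%, and the Y chromosome is not drawn.

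In base composition the peaks beside H3K4me3 and those far from it went opposite ways. GC content in 200 bp around the peak centre had a median of 67.5% in unmarked and 64.0% in marked peaks. It was 71.0% where regions lay on both sides, 66.5% where a region lay on one side and 63.0% where none lay within 1000 bp. Windows were called CpG-rich at a GC content of at least 50% and a ratio of observed to expected CpG of at least 0.6, which 47.98% of the windows at protein-coding start sites met. Of near unmarked peaks 91.8% were CpG-rich, against 83.5% of marked peaks (8.28 points higher, 5.57 to 10.5), and of far ones 70.6% (difference from marked peaks -12.8 points, -20.4 to -6.25). Over all 742 the share was 87.2%, 3.73 points above marked peaks (0.940 to 6.18). With the higher-scoring 50% of H3K4me3 regions the difference was 0.234 points (-2.23 to 2.52), and in TAF4b replicate 2 it was 81.4% against 83.8%, with an interval from -14.5 to 5.99. Whether base composition affected which regions were called was not tested.

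Unmarked peaks far from H3K4me3 were less often at promoters with starts in both directions. Annotated starts on both strands lay within 500 bp of the centre for 41.8% of unmarked and 47.4% of marked peaks (difference -5.65 points, -9.42 to -1.81). The share was 32.5% for the 160 far peaks (difference from marked peaks -14.9 points, -21.8 to -7.21). For the 582 near peaks it was 44.3%, and the interval included 0 (-3.10 points, -7.32 to 1.19). In TAF4b replicate 2 it was 45.8% against 56.6%, with an interval that included 0 (-23.4 to 2.34).

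Transcription factor sites were compared by searching the same 200 bp on each strand for 14 consensus sequences. For NF-Y the search used CCAAT. The GC box of SP and KLF factors was taken as GGGCGG. ETS factors were represented by the letters CCGGAAG. For NRF1 there were both a full site, CGCATGCG, and the shorter form, GCGCATG. The cyclic AMP response element (CRE) was searched as TGACGTCA in full and also in its short form, TGACGT. Sites of YY1 were searched as AAGATGGC and those of GFY were searched as TACAATTCC. The TATA box was taken as TATAAA, while the E box was represented by CACGTG. E2F was searched as TTCCCGCC, whereas for AP-1 the letters were TGAGTCA. The core of the CTCF site was represented by AGGGGGC. The short forms of NRF1 and CRE sites overlap the full ones, and CCAAT can overlap the end of a GC box, as in the 2610005L07Rik peak. A match describes letters in the window and shows no binding.

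The CCAAT box was the sequence with the widest difference: it lay in 28.8% of unmarked and 43.9% of marked peaks (difference -15.0 points, -18.5 to -11.4), beside 42.1% of all TAF4b replicate 1 promoter peaks and 29.5% of 21757 windows at protein-coding start sites. The share was 27.7% in near and 33.1% in far peaks. The rule left out peaks shared with TAF4b replicate 2 from the unmarked group only. Of the 47 left out, 61.7% held the CCAAT box. Against the 4406 marked peaks without a TAF4b replicate 2 peak the difference was -12.9 points (-16.3 to -9.19). With the 47 kept as unmarked it was -13.1 (-16.5 to -9.51). Among windows with at least 60% GC the difference was -13.0 points (-16.7 to -9.04), below 60% GC it was -15.2 (-23.3 to -6.72), and in the higher-scoring 50% of peaks it was -13.1 (-18.5 to -7.47). In TAF4b replicate 2, however, the CCAAT box lay in 59.3% of the 59 unmarked and 59.5% of the marked peaks (difference -0.177 points, -13.4 to 11.999), so the lower share was not seen in that list.

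Of the other sequences, 6 were more frequent in unmarked peaks, 1 was less frequent, and 6 had intervals that included 0. The E2F sequence lay in 5.26% of unmarked and 3.10% of marked peaks (2.16 points, 0.674 to 4.06), with 3.46% of all promoter peaks and 2.202% of start site windows as background. In TAF4b replicate 2 the E2F shares were 11.9% and 3.53% (8.33 points, 2.10 to 19.1). The short NRF1 site lay in 11.6% and 7.41% (4.18 points, 1.94 to 6.78; 7.90% of all promoter peaks, 4.01% of start site windows), and in replicate 2 in 3.39% and 5.30%. The full NRF1 site lay in 5.80% and 3.93%, against 0 and 2.80% in replicate 2.

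The E box lay in 12.5% of unmarked and 9.80% of marked peaks (2.73 points, 0.376 to 5.43; 10.2% of all promoter peaks and 6.03% of start site windows), and in replicate 2 in 8.47% and 8.25% (0.227 points, -5.10 to 10.3). The CTCF core lay in 17.9% and 15.1% (2.87 points, 0.0787 to 5.94; 15.4% and 9.56% as background), and in replicate 2 it was the rarer one in unmarked peaks, 6.78% against 17.4%. The CRE lay in 6.74% and 4.95%, and the ETS site in 14.7% and 17.8% (difference -3.09 points, -5.69 to -0.168). The ETS difference turned to 3.55 points in replicate 2. Of 14 alternatives, the interval excluded 0 with the same sign in 5 for the ETS site, 4 for the CTCF core and 8 each for the CRE, the full NRF1 site and the E box. It did so in 10 for the short NRF1 site and in 12 each for E2F and CCAAT. The GC box was the most frequent sequence, in 68.7% and 65.2% (3.52 points, -0.145 to 7.02), with 65.8% of all promoter peaks and 41.1% of start site windows holding it. Against marked peaks without a TAF4b replicate 2 peak the GC box difference was 4.41 points (0.711 to 7.94). The GC box went opposite ways within the unmarked peaks. It lay in 72.2% of near ones (6.95 points above marked peaks, 2.96 to 10.7) and 56.2% of far ones (difference -8.96 points, -16.8 to -1.39). The TATA box lay in 3.10% and 2.82%, below its 8.04% in start site windows.

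**Figure D5:**
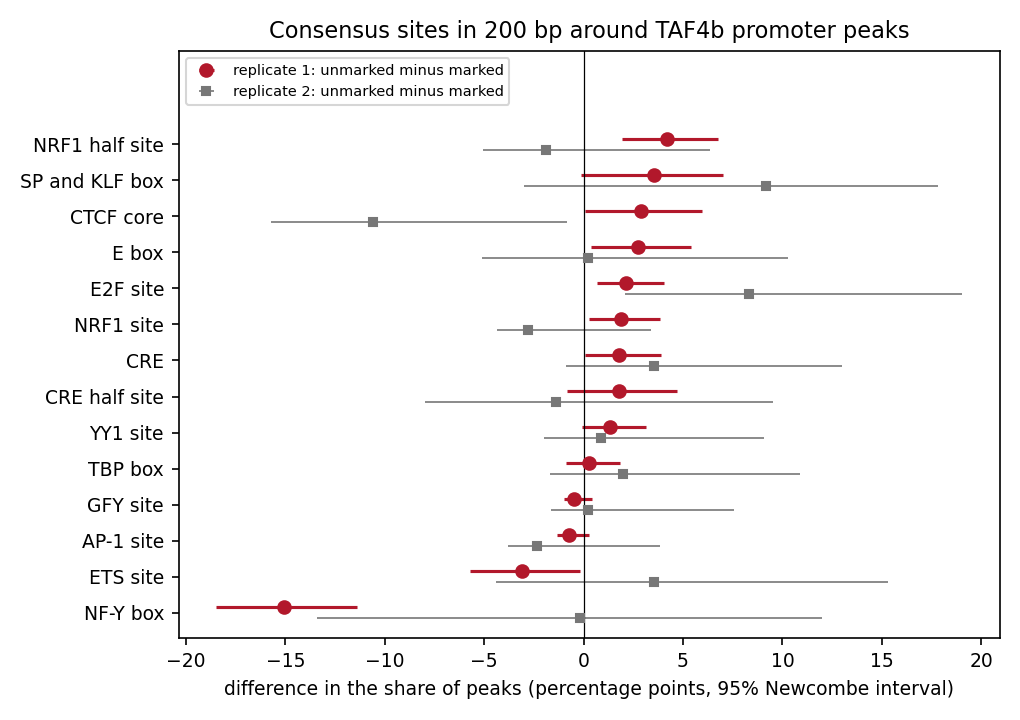
Difference in the share of TAF4b promoter peaks with each of 14 consensus sequences (horizontal axis, percentage points, unmarked minus marked; bars are 95% Newcombe intervals) for TAF4b replicate 1 (red circles) and replicate 2 (grey squares, 59 unmarked peaks). The NF-Y box, CCAAT, stands at -15.0 in replicate 1 and near 0 in replicate 2, and the E2F site is above 0 in both.

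Sequences repeated in the genome made up a small part. A further copy, at 95% identity over 90% of the peak or more, was found for 19 unmarked peaks (2.56%) and for 47 marked peaks (0.946%), and 14 of the 19 were among the 160 far peaks (8.75%). The most repeated were Gm52981, with 475 further copies, and D730045A05Rik, with 118, which were picked out after their values were seen. Leaving such peaks out, unmarked peaks made up 12.7% of promoter peaks.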

How the data were processed

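Each deposited list held the TAF4b peaks or H3K4me3 regions of 1 library, annotated with HOMER against GRCm39 and Ensembl 103, as the H3K4me3 lists say in their headers; the TAF4b lists name no build and were read as GRCm39. The submitters' processing notes name bcl2fastq 2.20, Trim Galore 0.5.0, FastQC 0.11.5, Bowtie2 2.3.0, SAMtools 1.9 and HOMER 4.10, without their roles. Per the file headers, the score is the authors' value per peak, and its normalization and the calling threshold are not given in the sources used here. The focus ratio is a deposited fraction. Only peaks past the authors' threshold are listed, with lowest scores of 6.45 and 40.5 (TAF4b replicates 1 and 2) and 16.4 and 96 (H3K4me3). Read totals were not used here, so the depth is unknown.

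Intervals overlapped when they shared 1 bp or more. Genes came from transcript identifiers through GENCODE M39, sequences from GRCm39, and copies from blastn 2.17.0. Other steps used Python 3.11.15, pandas 2.3.3, numpy 2.4.6, scipy 1.17.1 and pysam 0.24.0, and were tested on simulated intervals and shares. No p-value was computed, since the peaks were chosen from single libraries (TAF4b replicates 1 and 2 and H3K4me3 replicate 1) with no replicate spread. Shares carry 95% Wilson intervals and differences Newcombe intervals. The peaks, 12 gene lists and 14 consensus sequences were chosen with earlier results of these data known. Genes named were Taf4b, the 20 highest-scoring unmarked peaks, unmarked peaks of listed genes, the 5 farthest protein-coding ones and the 5 peaks nearest each side of the definition; others are said to be chosen after their values were seen. Some genes that these rules select are not reported here. Alternatives changed the score threshold, the overlap needed, the promoter definition, the window, the GC class and the TAF4b list.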

Additional observations from a re-analysis of the deposited data

How the results depend on the processing

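Of 78 alternative values for the main results, 54 kept their sign and stayed within the interval of the main value or, for counts, within 1.5 times, 21 moved further and 3 reversed. The share of promoter peaks that were unmarked, 12.9%, was 10.07% in the higher-scoring 50% of TAF4b peaks, 19.9% with the higher-scoring 50% of H3K4me3 regions, 14.9% where 50% of the peak had to lie in a region and 2.78% where a region within 1000 bp counted as marked. The share near a region was 83.0% and 25.7% under the first and the second of these. With a region within 1000 bp counted as marked, the differences were -10.1 points for protein-coding transcripts, -13.8 for CpG-rich windows, 11.4 for X, -1.05 for the CTCF core and -9.85 for the GC box, and 2 consensus sequences differed in place of 8. For CpG-rich windows the difference was 0.234 with the higher-scoring 50% of H3K4me3 regions, and for X it was 1.80 in the higher-scoring 50% of TAF4b peaks. TAF4b replicate 2 gave -11.5 (protein-coding), -14.2 (CpG-rich), -8.63 (upstream centre), 1.57 (X), 1.09 (ETS), -2.80 (NRF1), -2.40 (short NRF1 site), -1.001 (E box) and -10.1 (CTCF core), with 2 sequences differing. Without the mitochondrial genome it gave -4.50, -2.44, -5.54, 2.06, 3.55, -2.80, -1.91, 0.227 and -10.6, again with 2 sequences. The number of sequences was 5 in a 100 bp window, 4 at 60% GC or more and 3 below it, where the CRE gave -0.921.

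Without TAF4b replicate 2 the share of unmarked peaks was 13.7%, and leaving out TAF4b or H3K4me3 replicate 1 leaves no peaks to describe. No paired analysis was possible because no result comes from a test over samples, and TAF4b replicates 1 and 2 and H3K4me3 replicate 1 chose the peaks. The single-copy and mitochondrial alternatives, and the X chromosome result with its alternatives, were added after seeing the data. The unknown depth limits every statement on missing regions, and the 59 unmarked peaks of TAF4b replicate 2 give wide intervals.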
